A study of Rattus norvegicus with 6 samples.

Results

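The 10 genes described here are receptors, ligands and target genes of the Notch pathway, among 43350 gene rows of a rat dorsal root ganglion (DRG) RNA-seq table. They are the receptors Notch1, Notch2 and Notch3, the ligands Dll1, Jag1 and Jag2, and the target genes Hes1, Hes5, Hey1 and Hey2. A member was taken as the row whose gene name equals its symbol, and where several rows did, the protein-coding row with the most counts was used. All 10 were found. The samples came from male Sprague-Dawley rats, and RNA of the left lumbar 4 to 6 DRG was collected 11 days after surgery in 2 groups of 3 libraries. In chronic constriction injury (CCI) rats, the sciatic nerve on that side had been loosely tied. In sham rats the nerve was exposed and not tied, so both groups shared the surgical approach. Rats had been assigned to CCI or sham at random. After behavioural testing, those whose behaviour was that of their group were kept, and 3 of each group were picked at random for sequencing. The labels list the treatment of the sham rats as none and speak of pooled RNA, whereas the methods describe 1 animal for each library, which was the reading adopted.

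Notch is a receptor on the cell surface that is activated by a Delta or Jagged ligand on a neighbouring cell. Binding leads to cleavage of the receptor by ADAM proteases and then by gamma-secretase, and the freed intracellular domain joins the DNA-binding protein RBPJ in the nucleus, where genes of the Hes and Hey families are among its best known targets. These encode repressors that hold back neuronal differentiation in the developing nervous system, and Notch signalling is also used by glia, Schwann cells and the walls of blood vessels.

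The total counts lay between 75423546 and 87615743 for each library. Genes known to rise in injured sensory neurons served as a check on the labels. Atf3 was higher in CCI by 3.47 on the log2 scale, Gal by 4.49 and Npy by 6.14, with no overlap between the groups for any of the 3 (edgeR, Benjamini-Hochberg adjusted p = 0.0296, 0.0383 and 0.00490). Sham 1 stood apart in the summed level of 7 skeletal muscle markers, at 143 FPKM against 4.32 to 21.0 in the other libraries. FPKM is the number of reads scaled by the length of a row and by the depth of the library. A comparison between genes therefore also rests on the row lengths, which were not checked against known transcripts.

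The stretches before the starts of Hes1, Hes5 and Hey2 are shown because these target genes held the letters of the RBPJ motif near their starts. Each is the 250 bases before the start that RefSeq gives, on the gene's strand from 5′ to 3′, and capitals mark the 6-letter core TGGGAA or, where it lies on the other strand, its reverse complement. The build is GRCr8, whose coordinates differ from those of the expression table. The stretches lie at chr11:84213046-84213295 (minus strand) for Hes1, chr5:170804327-170804576 (plus strand) for Hes5 and chr1:28640850-28641099 (plus strand) for Hey2.
Hes1: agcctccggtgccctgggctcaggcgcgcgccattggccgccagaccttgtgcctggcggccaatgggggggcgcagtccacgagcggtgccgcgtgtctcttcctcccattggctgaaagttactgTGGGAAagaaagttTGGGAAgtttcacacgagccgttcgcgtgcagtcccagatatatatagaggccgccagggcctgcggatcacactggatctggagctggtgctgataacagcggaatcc
Hes5: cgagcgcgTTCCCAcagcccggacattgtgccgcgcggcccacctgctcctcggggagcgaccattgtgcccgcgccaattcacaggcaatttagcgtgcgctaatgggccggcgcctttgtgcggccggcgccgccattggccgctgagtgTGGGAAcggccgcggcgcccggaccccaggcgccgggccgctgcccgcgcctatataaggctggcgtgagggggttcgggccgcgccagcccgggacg
Hey2: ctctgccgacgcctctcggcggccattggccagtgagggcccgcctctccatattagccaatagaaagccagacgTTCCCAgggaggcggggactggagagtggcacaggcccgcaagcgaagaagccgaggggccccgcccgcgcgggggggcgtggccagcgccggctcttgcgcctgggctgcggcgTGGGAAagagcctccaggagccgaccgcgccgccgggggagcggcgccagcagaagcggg

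The core TGGGAA, the 7-letter site GTGGGAA that contains it, the N box CACNAG (a motif bound by Hes proteins) and the E box CACGTG were searched on both strands of the same 250 bases. A promoter was in the RefSeq table for 9 of the 10 members, Hey1 being the other. Of all 33469 promoters in the table, 22.1% held the core, 5.27% the longer site, 37.2% an N box and 5.59% an E box. Among the members, Dll1, Hes1, Hes5 and Hey2 held the core, each at 2 places, and all 4 also held the longer site. Heyl and Nrarp, from the wider pathway, were searched as well, and each held 0 cores and 0 longer sites.

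In the Hes1 stretch both cores lay on the gene's strand, 123 and 109 bases before the start, and the first was part of the longer site. Hes5 held the longer site at both places. One began 242 bases before the start, on the opposite strand, and the other 99 bases before it, on the gene's strand. Hey2 held a core on the opposite strand 175 bases before the start and a longer site 61 bases before it. The N box was found 4 times before Hes1, 4 times before Notch1 and once before Notch3, and was not found before Hes5. None of the 4 motifs was found before Notch2, Jag1 or either of the 2 listed starts of Jag2. A match of letters is a description of the sequence and says nothing about binding in these ganglia.

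**Figure D1:**
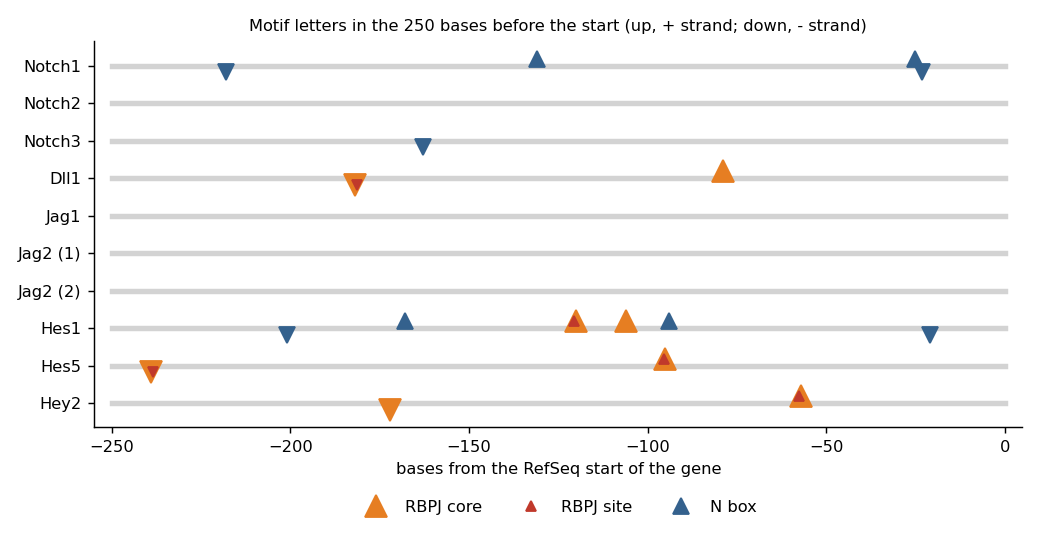
Positions of the motif letters in the 250 bases before the RefSeq start of 9 members (x axis, bases from the start; Jag2 has 2 listed starts). Large orange triangles are the RBPJ core, small red ones the longer site that contains it, and blue ones the N box, pointing up on the gene's strand and down on the opposite strand; Dll1, Hes1, Hes5 and Hey2 carry 2 cores each.

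Across the 10 members, Hes5 was lower in the CCI ganglia and no other tested member passed the test. Calls needed an unadjusted p under 0.05 in the edgeR quasi-likelihood test and a change of 0.58 or more on the log2 scale. The test was fitted over 26663 rows, those whose FPKM averaged 0.5 or more. Of the 9 members that reached that level, 1 was called lower and 0 higher. Over all rows tested, 1.26% were called lower and 2.57% higher. No other tested member reached an unadjusted p under 0.05, with edgeR, with DESeq2 or with limma, and over all rows 10.7% did so in edgeR. No member passed at an adjusted p under 0.05 with any of the 3 tools, as against 0.0938% of all rows in edgeR. The median log2 fold change of the 9 was -0.02, beside 0.01 over all rows, with 4 values above 0 and 5 below. The 95% interval lay wholly within a log2 change of 0.58 in either direction for 6 of the 9, and for 47.0% of all rows.

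**Figure D2:**
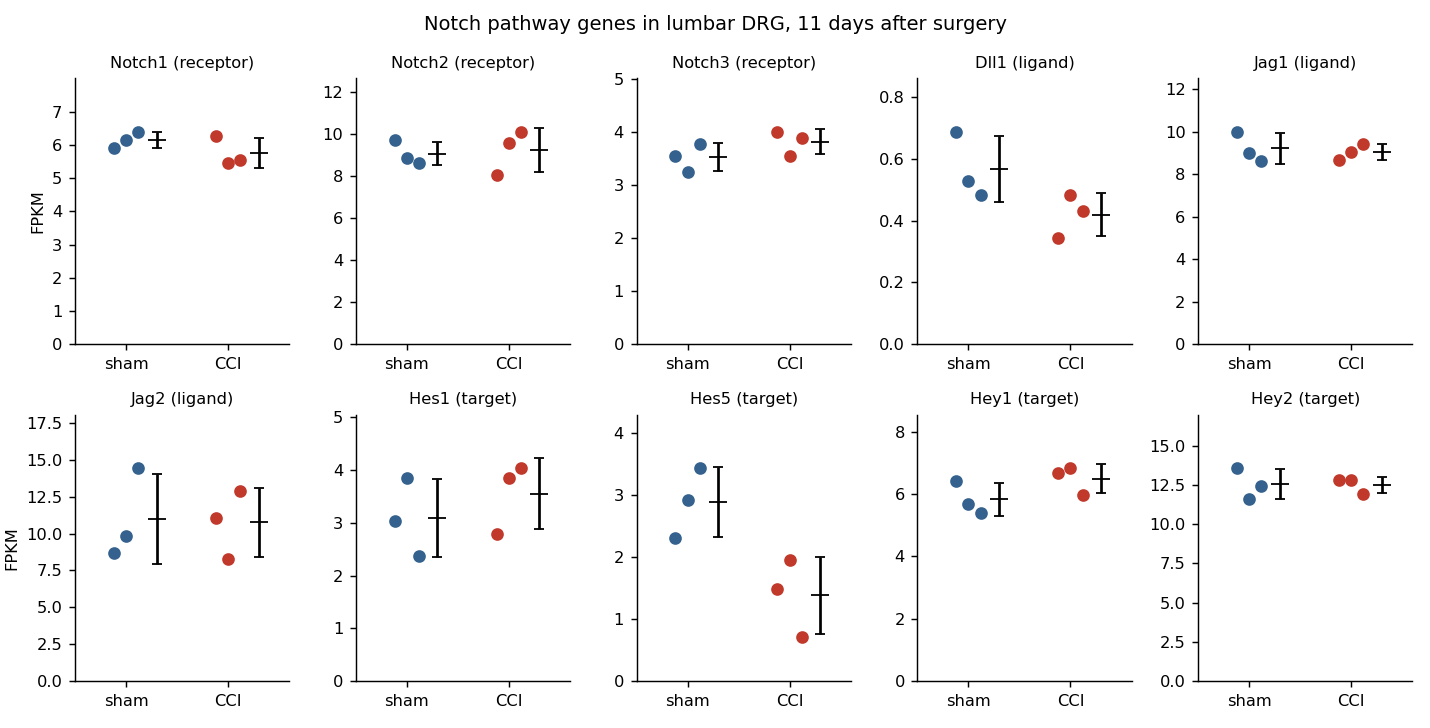
Level of each of the 10 members in the 6 libraries (y axis, FPKM from 0; blue, sham; red, CCI), with the group mean and SD in black (n = 3). The Hes5 points are separated between the groups, at 0.711 to 1.95 FPKM in CCI and 2.31 to 3.43 in sham, Dll1 is separated by 0.483 against 0.484 FPKM, and the other 8 members overlap.

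Hes5 encodes a repressor of the basic helix-loop-helix family that is a target of Notch in neural progenitors and glia. Its row lies on chromosome 5 from 172364421 to 172365188, plus strand, on the genome the authors call V101. Its level was 1.48, 1.95 and 0.711 FPKM in CCI 1, 2 and 3, and 2.31, 2.93 and 3.43 FPKM in sham 1, 2 and 3. All 3 CCI libraries were below all 3 sham libraries, with CCI 3 the lowest, and 17.3% of all tested rows likewise had groups that did not overlap. The level in CCI was 0.472 of that in sham (95% interval 0.246 to 0.908, edgeR quasi-likelihood test, unadjusted p = 0.0303), and the Benjamini-Hochberg adjusted p of this test was 0.399. These levels rest on 35 to 102 reads in a CCI library and 132 to 187 in a sham library.
The log2 fold change, -1.08 over all libraries, was -0.77 without CCI 3 (unadjusted p = 0.0407) and -1.41 without CCI 2 (unadjusted p = 0.0159). The call was lost without CCI 1 (-1.14, unadjusted p = 0.0605), without sham 2 (-1.07, unadjusted p = 0.0674) and without sham 3 (-0.93, unadjusted p = 0.0911), where the difference stayed close to that over all libraries. Without sham 1, the library with the muscle markers, the log2 fold change was -1.23.

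Hes1, the other Hes member, encodes a repressor that responds to Notch and to other signals. Its row lies on chromosome 11 from 74312806 to 74315248, minus strand. It was at 2.79, 3.84 and 4.04 FPKM in CCI 1, 2 and 3, and at 3.04, 3.86 and 2.38 FPKM in sham. The groups overlapped, with sham 2 next to CCI 2 and sham 3 the lowest library. The log2 fold change was 0.18 (SE 0.23, unadjusted p = 0.450), and the 95% interval of the fold ran from 0.775 to 1.67.

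Hes5 and Hes1 were set against each other within each library, as the difference of their log2 CPM (counts scaled to library size, CPM). This comparison and those of 3 more pairs were chosen knowing the values above. Hes5 minus Hes1 was -2.17, -2.24 and -3.72 in CCI 1, 2 and 3. It was -1.66, -1.67 and -0.75 in sham 1, 2 and 3. The CCI values were all lower, by 1.35 on average, with SDs of 0.873 in CCI and 0.527 in sham. Without CCI 3 the average difference was -0.85, and without CCI 1 it was -1.62. The two-sided exact permutation test gave p = 0.1, the smallest value it can give with 3 libraries in each group, and 0.133 after Benjamini-Hochberg adjustment over the 4 pairs. In FPKM, Hes5 and Hes1 overlapped in sham, with means of 2.89 ± 0.561 and 3.09 ± 0.744 (SD, n = 3), and did not overlap in CCI, with means of 1.38 ± 0.624 and 3.56 ± 0.671.

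**Figure D3:**
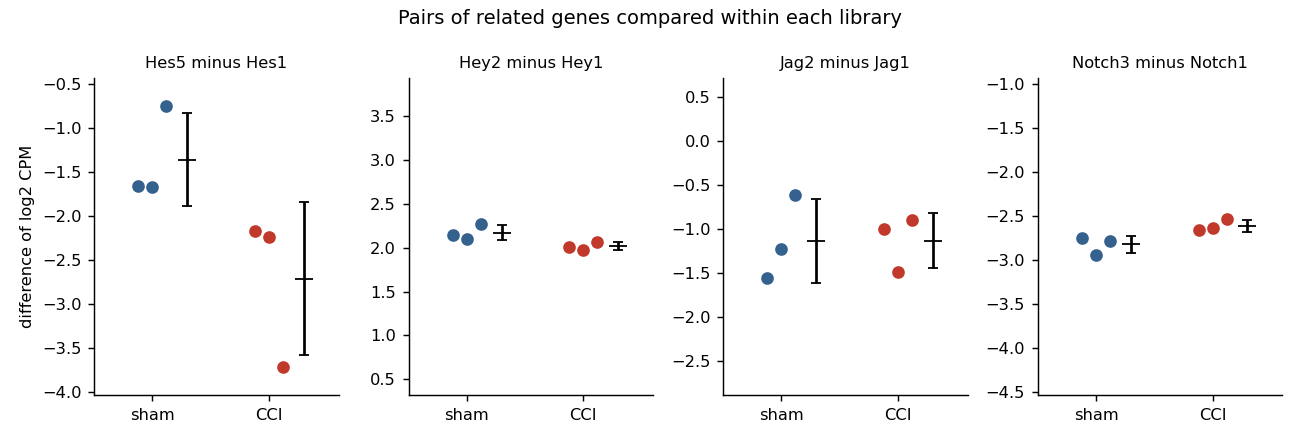
Difference of log2 CPM between the 2 genes of each pair, in each library (blue, sham; red, CCI), with the group mean and SD in black (n = 3); every panel spans the same range. Hes5 minus Hes1 is lower in all 3 CCI libraries, Jag2 minus Jag1 overlaps, and the shifts of Hey2 minus Hey1 and Notch3 minus Notch1 are about 0.16 and 0.21.

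Hey1 and Hey2 encode related repressors that are prominent in blood vessels and the heart. Hey1 (chromosome 2, 95320114 to 95322696, plus strand) was at 6.69, 6.83 and 5.98 FPKM in CCI and 6.44, 5.68 and 5.39 FPKM in sham. Hey2 (chromosome 1, 29191192 to 29201531, plus strand) was at 12.8, 12.8 and 11.9 FPKM in CCI and 13.6, 11.6 and 12.4 FPKM in sham. The groups overlapped for both genes, and the log2 fold changes were 0.14 (SE 0.12) for Hey1 and -0.02 (SE 0.08) for Hey2. Hey2 was the most abundant member per length in both groups, with a mean of 12.5 FPKM in each. A second row named Hey1, next to the first and without a strand, held 38.0% as many counts and had a log2 fold change of -0.07 (unadjusted p = 0.776). Hey2 minus Hey1, in log2 CPM, was lower in CCI by 0.16 with no overlap (two-sided exact permutation test, p = 0.1, adjusted 0.133).

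The receptors were measured with 2087 to 17494 reads in each library. Notch1 (chromosome 3, 3905453 to 3951025, minus strand) was at 6.26, 5.45 and 5.55 FPKM in CCI and 5.90, 6.13 and 6.40 FPKM in sham. Notch2 (chromosome 2, 200187179 to 200320215, plus strand) was at 8.04, 9.54 and 10.1 FPKM in CCI and 9.69, 8.87 and 8.62 FPKM in sham. CCI 2 and CCI 3 were below every sham library for Notch1, whereas for Notch2 CCI 1 was the lowest and CCI 3 the highest of all 6. Notch3 (chromosome 7, 14138495 to 14189688, minus strand), which is best known from mural cells of arteries, was at 4.02, 3.56 and 3.90 FPKM in CCI and 3.56, 3.25 and 3.78 FPKM in sham. The groups overlapped for all 3 receptors. The fold of CCI over sham was 0.925 for Notch1 (95% interval 0.819 to 1.05), 1.01 for Notch2 (0.863 to 1.17) and 1.07 for Notch3 (0.928 to 1.24). Notch3 minus Notch1, in log2 CPM, was higher in CCI by 0.21 with no overlap (two-sided exact permutation test, p = 0.1, adjusted 0.133). Other rows named Notch1 lay inside the Notch1 locus and held 0.718% and 0.00526% as many counts.

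Jag1 and Jag2 encode the Jagged ligands. Jag1 (chromosome 3, 130079361 to 130114770, minus strand) was at 8.68, 9.05 and 9.43 FPKM in CCI and 10.01, 9.01 and 8.63 FPKM in sham. Jag2 (chromosome 6, 137711155 to 137733388, minus strand) was at 11.1, 8.26 and 12.9 FPKM in CCI and 8.69, 9.82 and 14.4 FPKM in sham. Jag2 varied widely within both groups, from 8.26 to 14.4 FPKM, and the interval of its fold, 0.653 to 1.43, was wider than that of Jag1, 0.869 to 1.09. The log2 fold changes were -0.04 for Jag1 and -0.05 for Jag2, and Jag2 minus Jag1 differed by 0.00 in log2 CPM (two-sided exact permutation test, p = 1).

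Dll1, a Delta ligand known from neural progenitors, was the least abundant member per length in both groups. Its row lies on chromosome 1 from 57318708 to 57327379, minus strand. It was at 0.345, 0.483 and 0.431 FPKM in CCI and 0.688, 0.528 and 0.484 FPKM in sham, from 113 to 157 reads and 164 to 244 reads. The groups did not overlap, but CCI 2 and sham 3 were nearly equal. The mean of the 6 libraries, 0.493 FPKM, was just under the limit for testing. In the fit of all 35757 rows with a count, the log2 fold change was -0.45 (SE 0.23, edgeR quasi-likelihood test, unadjusted p = 0.0927), and it lay between -0.56 and -0.29 when each library was left out.

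In both groups the order of the members per length began with Hey2, Jag2 and then Jag1 and Notch2, whose FPKM ranges each overlapped with that of the gene above. Hey1 and Notch1 followed and overlapped with each other, then came Notch3 and Hes1, which also overlapped. Hes5 and Dll1 were last. The step from the first 4 genes to Hey1 and Notch1, and the step from those to Notch3, had no overlap in either group. This order depends on the row lengths. In CPM, which is not scaled by length, Notch1 averaged 187 in CCI and 202 in sham, against 38.3 and 38.8 for Hey2.

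Of 72 other genes of the pathway that were listed, 70 were found and 60 were tested. Of these, 0 were called higher and 0 lower by edgeR, and likewise by DESeq2 and by limma, beside 2.57% and 1.26% of all rows in edgeR. At an unadjusted p under 0.05 alone, edgeR gave 3 higher and 3 lower, a share close to the 10.7% of all rows. DESeq2 gave 4 higher and 2 lower, and limma 3 higher and 1 lower. The groups did not overlap for 10 of the 60, against 17.3% of all rows. The log2 fold changes ran from -0.32 to 0.42 with a median of 0.02. Of the 60 intervals, 48 lay within 0.58 in either direction, against 47.0% of all rows. The listed genes were not matched to all rows in level, on which the width of an interval also depends.

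The corepressor Ctbp2 showed the lowest p of the list. It was at 3.66, 3.51 and 3.41 FPKM in CCI and 2.84, 2.64 and 2.74 FPKM in sham, and the groups did not overlap. Its log2 fold change was 0.35 (SE 0.07, edgeR unadjusted p = 0.00137, Benjamini-Hochberg adjusted p = 0.146), under the size limit for a call. DESeq2 gave it an adjusted p of 0.00755, and it was the only gene of the list under 0.05 in that tool. Among the Groucho-type corepressors, Tle3 had a log2 fold change of 0.35 (unadjusted p = 0.0211) and Tle4 one of -0.27 (unadjusted p = 0.0121). Ctbp2, Tle3, Tle4, Bhlhe41 and Dner were named after their values were seen.
Heyl, a relative of Hey1 and Hey2, was at 3.60, 3.74 and 4.25 FPKM in CCI and 4.55, 4.13 and 4.86 FPKM in sham. CCI 3 lay above sham 2, and the log2 fold change was -0.24 (unadjusted p = 0.0392). Bhlhe41, a repressor of the same wider family, had a log2 fold change of 0.42 (unadjusted p = 0.0372), and Dner, a neuronal non-canonical ligand, one of -0.14 (unadjusted p = 0.0449).

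The DNA-binding partner Rbpj had a log2 fold change of 0.36 (unadjusted p = 0.228) that came from a single library. It was at 5.71, 5.67 and 5.15 FPKM in CCI and 5.22, 5.07 and 2.42 FPKM in sham. Sham 3 was far below the others, and without it the log2 fold change was 0.09. The same library was low for Mib1, an E3 ligase that acts on the ligands, at 9.62 FPKM against 24.6 to 25.4 in the other libraries, and for the corepressor Spen, at 2.96 FPKM against 5.96 to 6.29. The coactivator Maml2 stood apart in the other direction, at 3.69 FPKM in sham 3 against 1.87 to 2.38, and had the lowest log2 fold change of the list, -0.32. Without sham 3 the log2 fold changes were 0.00 for Mib1, -0.02 for Spen and -0.01 for Maml2. The symbols Mib1, Spen and Maml2 had 3, 2 and 8 rows, and only 1 row of each was read, so reads in their other rows are not included. Mib1, Spen and Maml2 were named after their values were seen.

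Of the other core genes, the endothelial ligand Dll4 was at 0.867, 1.24 and 1.20 FPKM in CCI and 0.840, 0.871 and 0.724 FPKM in sham, with a log2 fold change of 0.42 (unadjusted p = 0.0552). CCI 1 lay among the sham libraries. The endothelial receptor Notch4 had a log2 fold change of -0.06, the feedback inhibitor Nrarp one of -0.13 and the fringe enzyme Lfng, which modifies the receptors, one of 0.18. The receptor protease Adam10 had a log2 fold change of -0.01, and its sign was the opposite in limma, at 0.01. All 9 listed proteases and gamma-secretase parts had intervals within 0.58, against 47.0% of all rows. At an unadjusted p under 0.05, 0 of them passed, against 10.7% of all rows. Of the 10 listed genes that were not tested for low level, 1 was Rbpjl, a relative of Rbpj. Rbpjl had 41, 27 and 43 reads in CCI and 0, 8 and 0 reads in sham. In the edgeR fit of all rows with a count, Rbpjl was called higher (unadjusted p = 0.0239, Benjamini-Hochberg adjusted p = 0.453). In that fit 908 of the 35757 rows were called higher, so Rbpjl was 1 of many. It was named after its values were seen.

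**Figure D4:**
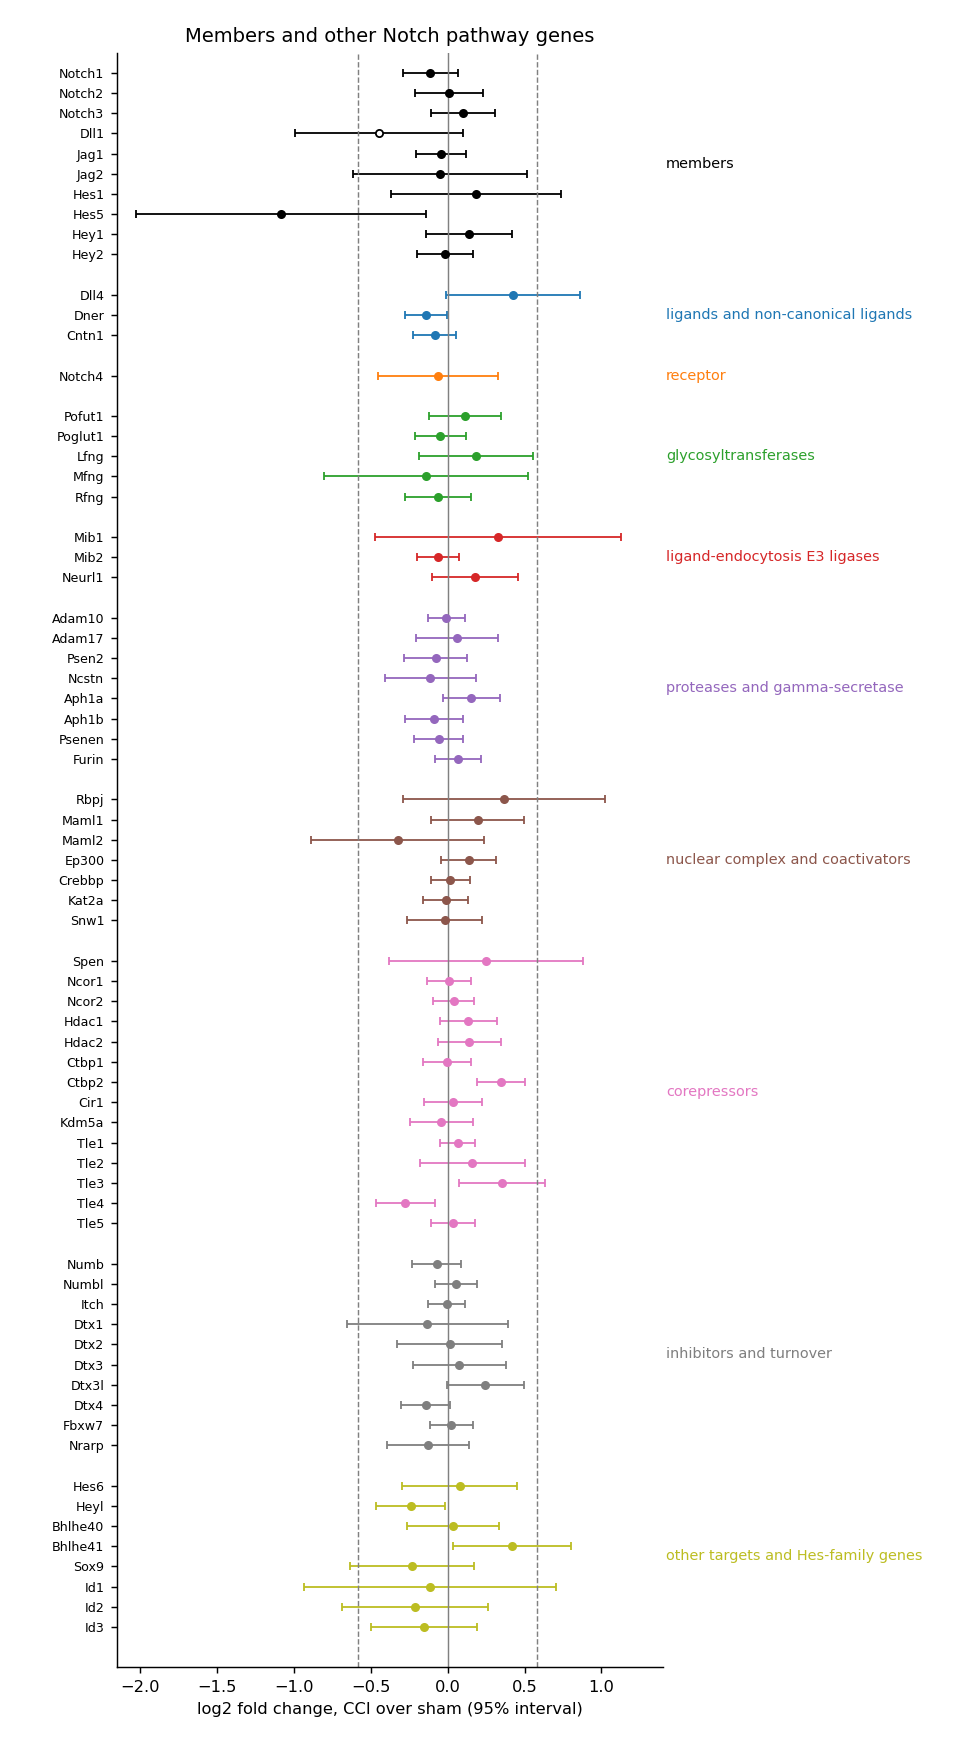
Log2 fold change of CCI over sham with its 95% interval for the 10 members (black; open circle, Dll1, from the fit of all rows with a count) and the other pathway genes tested, coloured by role (1 of the 60 is not drawn). The dashed lines mark 0.58 in either direction. Hes5 has the value farthest from 0. The wide intervals of Rbpj, Mib1 and Spen go with the low level, in sham 3, of the row read for each.

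Since the tissue is a mixture, a smaller number of cells of a type and less RNA in each cell cannot be told apart. Markers of the cells in which Hes5 could lie were therefore read in the same libraries. Of 10 satellite glia markers, 0 were called by edgeR, DESeq2 or limma, with 2 higher and 0 lower at an edgeR p under 0.05, and none was at 0. DESeq2 gave 2 higher and 1 lower at that limit. Their summed level was 1050 to 1151 FPKM in CCI and 1038 to 1109 in sham, of which Apoe alone made up 85.6% to 87.6%. Without Apoe the sum was 143 to 150 FPKM in CCI and 138 to 151 in sham. Fabp7, a lipid-binding protein of satellite glia, was at 12.6, 12.3 and 6.54 FPKM in CCI and 16.6, 12.9 and 15.9 FPKM in sham. It was lowest in CCI 3, as Hes5 was, and its log2 fold change was -0.55 (unadjusted p = 0.0779). Kcnj10 and Slc1a3 were also lowest in CCI 3, whereas Sox2, Cnp and Pou3f1 were highest there. Thus 3 of the 10 markers had their lowest value and 3 their highest value in that library. Sham 3 held the lowest value of 5 of the 10 and the highest of 0. Whether each listed gene is particular to satellite glia in these ganglia was not tested. By group, Cdh19 and Pou3f1 had log2 fold changes of 0.37 and 0.55 (unadjusted p = 0.0101 and 0.0191). The groups did not overlap for 4 of the 10 markers, against 17.3% of all rows. In FPKM, Fabp7 was lower in every CCI library than in every sham library, and Cdh19, Cnp and Pou3f1 were higher.

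**Figure D5:**
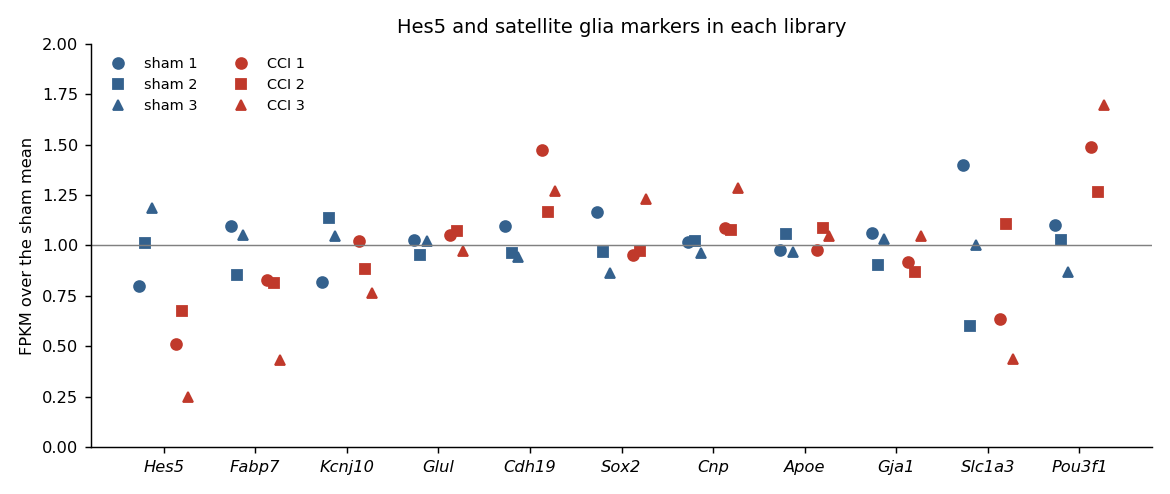
Level of Hes5 and of 10 satellite glia markers in each library, as FPKM over the mean of the 3 sham libraries (line at 1; blue, sham; red, CCI; the shape gives the replicate number). Hes5 and Fabp7 are lowest in CCI 3 and are lower in every CCI library than in every sham library. Cdh19, Cnp and Pou3f1 are higher in every CCI library than in every sham library, and the groups of the other markers overlap.

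Of 10 Schwann cell markers, 0 were called by any of the 3 tools (1 lower at an edgeR p under 0.05), and their summed level was 2539 to 3560 FPKM in CCI and 3168 to 3589 in sham. The endothelial sum was 23.9 to 34.9 FPKM in CCI and 28.4 to 35.0 in sham, with 1 of 9 markers, Cldn5, at 0 in every library and 0 called. The mural cell sum was 67.2 to 70.3 against 55.3 to 68.5 FPKM, and the fibroblast sum 393 to 690 against 585 to 618 FPKM, with 0 called in each list by any of the 3 tools. At an edgeR p under 0.05, 2 mural markers were higher and 0 markers of endothelium or fibroblasts passed. Macrophage markers were higher, with 5 of 10 called, against 2.57% of all rows called higher, and a sum of 206 to 293 against 114 to 131 FPKM. Of T cell markers only Cd4, which macrophages also express in rats, was tested, and it was called higher, as were 2.57% of all rows. The sum of 6 markers was 7.64 to 10.3 against 5.85 to 6.11 FPKM, and the CD3 genes were near 0. Neuronal markers, which define the labelled tissue, summed to 4139 to 4225 against 3793 to 4275 FPKM. Of these, 1 of 11, Pvalb, was called lower, against 1.26% of all rows. At an edgeR p under 0.05, 4 of the 11 were lower and 2 higher, against 10.7% of all rows in either direction. The groups did not overlap for 7, against 17.3% of all rows. The near-equal sums therefore cover markers that lay in both directions, though 0 of the 11 passed an adjusted p under 0.05 in edgeR. Nefh, a neurofilament of large neurons, was at 515, 615 and 580 FPKM in CCI and 777, 829 and 860 FPKM in sham, with a log2 fold change of -0.54 (edgeR unadjusted p = 0.000415), and its DESeq2 adjusted p was 5.73e-06. Of 5 proliferation markers tested, 0 were called and 0 had an edgeR p under 0.05, with 1 under it in DESeq2; the sum was 4.59 to 5.06 against 3.30 to 4.94 FPKM. Of 7 muscle markers tested, 5 were called lower by edgeR, against 1.26% of all rows. DESeq2 also called 5 lower and limma 0, and sham 1 was the highest library. The part of these differences in the level of Hes5 was not tested.

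The genes whose log2 CPM followed Hes5 or Hes1 most closely over the 6 libraries were sought among 12987 protein-coding rows with a symbol. For Hes5 they were Zfp839 (Pearson r = 0.994), Fgfbp3 (0.986) and Atp5mc3 (0.986). Fgfbp3, which encodes a binding protein of fibroblast growth factors, was at 0.876, 1.07 and 0.484 FPKM in CCI and 1.58, 1.75 and 1.82 FPKM in sham. The log2 fold changes were -0.28 for Zfp839, -1.10 for Fgfbp3 and -0.18 for Atp5mc3. Since these genes were picked for their likeness to Hes5 in the same libraries, their lower level in CCI follows from the choice and is given as a description. For Hes1 they were Dync1i2 (0.987), Nptn (0.984) and Wwc2 (0.983), whose own log2 fold changes were all 0.02. An r over 0.95 in size was reached by 78 genes for Hes5 and by 30 for Hes1, and Hes5 and Hes1 had an r of -0.46 with each other. These values describe 6 points that share libraries and depth.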

How the data were processed

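The authors sequenced paired-end libraries made after removal of ribosomal RNA, aligned the reads with HISAT2 and assembled loci with StringTie 1.3.0 (versions per the submitters' notes), on a rat genome given as V101. The deposited table holds a whole-number count of reads for each row and library, not normalized. The deposited FPKM values were made by the authors from those counts, the column total and a row length, and a count of 0 is listed as 0.0001. Whether strand was used is not given in the sources used here, so overlapping and antisense rows are less certain. Rows without a symbol held 5.37% to 5.72% of counts.
The members and gene lists were chosen with earlier results of these data known. Counts were fitted with edgeR 4.0.16 (quasi-likelihood, TMM factors of 0.988 to 1.01, trended prior, 2.52 prior degrees of freedom), and p-values were adjusted over all 26663 tested rows by the Benjamini-Hochberg method. Intervals are 95% intervals of the fit; pair differences used log2 CPM with a prior count of 2. Alternatives were DESeq2 1.42.0, limma 3.58.1 on log2(FPKM + 0.1), RLE factors, no filter or one at a mean FPKM of 1, a replicate block, and omission of every library in turn. Named genes are the members, Rbpj, Heyl, Dll4, Notch4, Nrarp, Lfng, Adam10, any called pathway gene, injury genes, and the 3 genes most correlated with Hes1 and Hes5; 1 more gene of this rule is not reported here. On simulated counts of 26663 genes for this comparison, 72 of 100 genes changed by 1 on the log2 scale and 96 of 100 changed by 2 were called, as were 2.87% of the unchanged. R 4.3.3, Python 3.11.15 and matplotlib were used. Libraries of a group are taken as separate animals from the methods. The p-values of the fits set the group difference against the spread between these libraries, with a prior from all tested rows. Those of the pairs come from permuting the group labels.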

Additional observations from a re-analysis of the deposited data

How the results depend on the processing

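The counts of members and pathway genes called kept their values under RLE factors, the stricter filter, DESeq2 and limma, and so did the counts of all rows to within 1.5 times under every setting run. The members called lower numbered 0 in place of 1 with the block for the replicate number, where Hes5 had a log2 fold change of -1.16 (edgeR, unadjusted p = 0.0523), and 0 to 1 when each library was left out. Over all tested rows, deviations of libraries with the same number correlated at -0.01, -0.02 and -0.05. The labels do not say that a number marks a shared animal or day. Correlations over all rows cannot exclude a shared batch that affects some genes. With no filter, 1 pathway gene, Rbpjl, was called higher, beside 908 of the 35757 rows in that fit. The sign turned for some genes near 0. Without 1 library at a time the log2 fold change was -0.057 to 0.097 for Notch2, -0.083 to 0.015 for Jag1, -0.20 to 0.20 for Jag2, -0.067 to 0.034 for Hey2, -0.22 to 0.032 for Notch4, -0.029 to 0.021 for Adam10 and -0.018 to 0.43 for Spen. The difference of Jag2 minus Jag1 was -0.21 to 0.27, and limma gave Adam10 0.0092. The cause was not tested. Hes5 rested on 35 to 187 reads in each library and Dll1 on 113 to 244, fewer than any other member.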
